A study of Homo sapiens with 6 samples.

Results

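The genes described here are the well expressed long noncoding RNA (lncRNA) genes of HCT116 cells, an established human colorectal carcinoma line of epithelial origin. They were taken from a table of 58735 genes by 2 features that the table gives. The annotated biotype had to be lincRNA (a lncRNA gene between other genes) or antisense (a lncRNA gene on the strand opposite to another gene), and the mean level over the 6 libraries had to be at least 5 FPKM (fragments of a gene relative to its length and to the fragments of the library). Of the 13212 lincRNA and antisense genes in the table, 83 reached that level. The small nucleolar and microRNA host genes, GAS5, ZFAS1 and EPB41L4A-AS1 were left out by name, which removed 10 and left 73 genes, 45 of them lincRNA and 28 antisense. The genes were thus chosen by their level, which is given as a description. The change between the groups did not choose them, except that the mean includes both groups.

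RNA was sequenced from 3 control libraries (CTR), with the genotype given as WT, and from 3 libraries of the same cells that had received miR-8485 mimics at 50 nM and were collected 48 h later. The control cells were transfected with a control whose sequence and dose are not given in the sources used here. The labels call the libraries of a group independent biological replicates, and no other allele or agent is named for either group. The comparison asks which of these lncRNAs differ in level when the mimic is present.

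A lncRNA is a long RNA transcript that is not read into a long protein. Some build or occupy bodies of the nucleus, some hold proteins away from their other targets, some are made divergently from the promoter of a protein-coding gene, and for many no function is known. A miRNA guides an Argonaute protein to RNAs that pair with its seed, the bases near its 5′ end, and lowering of such RNAs is best known for mRNAs in the cytoplasm, while many lncRNAs stay in the nucleus. The mimic is shown because the letters of its seed are searched for in the lncRNAs further on. It is written 5′ to 3′ as in the methods of the study, with its seed (bases 2 to 8) in capitals.
miR-8485 mimic: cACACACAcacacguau
An RNA pairs with this seed where it holds TGTGTGT in DNA letters, so that runs of the dinucleotide TG hold many overlapping matches.

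The 6 libraries held 17473874 to 18480047 fragments on listed genes, recovered from the FPKM values, of which 100% above 0 were whole fragments. The lncRNAs together took 34463 to 34727 fragments (0.193% to 0.199%) in CTR and 36234 to 38519 (0.205% to 0.208%) in miR-8485. A lncRNA had between 20 and 6674 fragments in a library, and 8 of the 73 had fewer than 100 in every library. The median standard error of the log2 fold change was 0.10 for the lncRNAs and 0.08 for all tested genes. Of the epithelial markers KRT8, KRT18, KRT19, EPCAM, CDH1 and VIL1, all but VIL1 were clearly expressed, with a sum of 2598 to 2822 FPKM in CTR and 1724 to 1808 in miR-8485. The 3 keratins were downregulated. EPCAM (134.9 ± 11.7 FPKM in CTR and 130.3 ± 3.48 in miR-8485, SD, n = 3) and CDH1 (19.72 ± 0.694 and 19.05 ± 0.297) overlapped between the groups. VIL1, a marker of differentiated intestinal epithelium, was near 0 (0.032 FPKM in CTR). The markers of other cell types (PTPRC, CD3E, LYZ, COL1A1, COL1A2, DCN, PECAM1 and VWF) summed to 4.75 to 4.81 FPKM in CTR and 6.59 to 6.79 in miR-8485. Nearly all of that sum was COL1A1, with a log2 fold change of 0.56, while CD3E and DCN were at 0 in every library and PTPRC was at or near 0. The part of these markers in the results below was not tested. In bulk libraries such as these, fewer cells of a type and less RNA per cell cannot be told apart.

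More of the well expressed lncRNAs rose than fell. With limma on log2(FPKM + 0.1) and Benjamini-Hochberg adjustment over all 12349 genes with a mean of at least 1 FPKM, 43 of the 73 were upregulated (58.9%) and 12 downregulated (16.4%) at an adjusted p under 0.05. Among all tested genes 3593 were upregulated (29.1%) and 3769 downregulated (30.5%). The median log2 fold change of the lncRNAs (the log2 difference between the group means, miR-8485 minus CTR) was 0.41, beside -0.0041 for all tested genes and -0.028 for the 6527 protein-coding genes with a mean of at least 5 FPKM, of which 31.9% rose and 35.7% fell. In 44 lncRNAs the 3 miR-8485 libraries lay above all 3 CTR libraries, where 32.5% of all tested genes did so, and in 12 they lay below, where 34% of all tested genes did so. The groups overlapped in the other 17. The balance over all genes depended on the scaling. Rescaling the values to TPM shifted the median over all tested genes to -0.12 and the share of upregulated among called genes from 48.8% to 35.6%, and the lncRNAs then counted 39 upregulated and 14 downregulated with a median of 0.30.

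The levels of the 73 were also set out library by library. Set against the CTR mean of each lncRNA, the median log2 ratio over the 73 was 0.022, -0.035 and 0.010 for CTR and 0.43, 0.46 and 0.42 for miR-8485. The summed level was 787, 806 and 808 FPKM in CTR and 932, 904 and 899 FPKM in miR-8485. Every miR-8485 library lay above every CTR library in both measures, although the most abundant of the 73 fell. The CTR medians are small because the CTR mean is the reference. The 73 include 20 lncRNAs that reached 5 FPKM in miR-8485 alone and 6 that did so in CTR alone. The sums were not rescaled to TPM. Both measures are therefore descriptions and add no separate support.

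**Figure D1:**
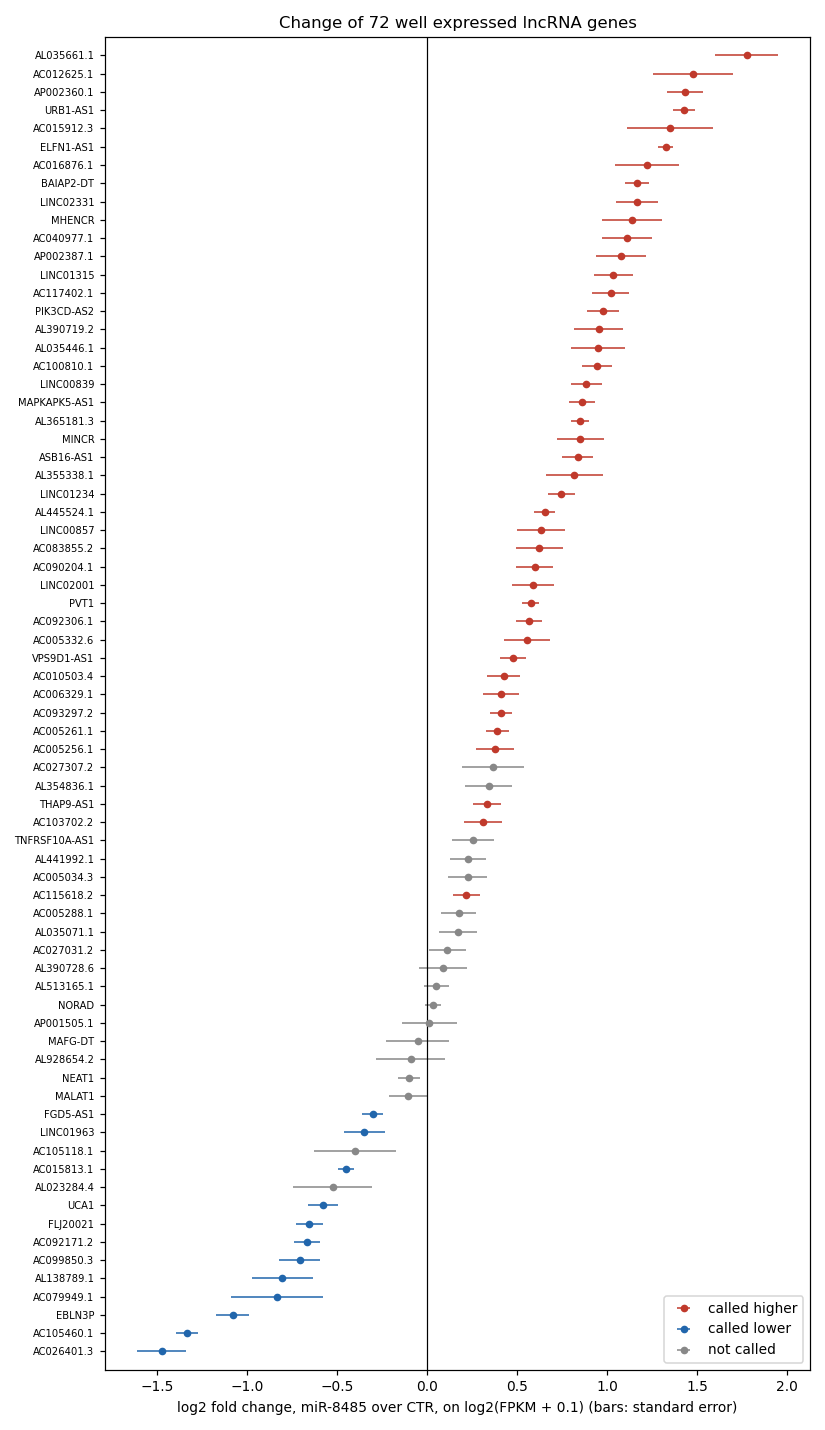
Log2 fold change (miR-8485 over CTR, on log2(FPKM + 0.1)) of 72 of the lncRNA genes, 1 gene per line, with bars for the standard error and colours for genes called higher (red, 42), lower (blue, 12) or not called (grey, 18). The values run from -1.47 for AC026401.3 to 1.78 for AL035661.1, and 54 of the 72 points lie above 0.

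A gene that is high in 1 group alone reaches a mean of 5 FPKM more easily, so the 73 were also divided by the level in each group. In 47 lncRNAs both group means were at least 5 FPKM, and 24 of these were upregulated (51.1%) and 8 downregulated (17%), with a median of 0.31. Another 20 reached 5 FPKM in miR-8485 alone and 6 in CTR alone, and their direction follows from that division. Just inside the threshold lay LINC02001 (mean 5.003 FPKM, renamed SNHG30 in GENCODE release 44), AC016876.1 (5.11) and ASB16-AS1 (5.11). Just outside it lay AC078923.1 (4.99), AC254633.1 (4.97) and AC132872.3 (4.96). These 3 had log2 fold changes of 0.87, -0.93 and 0.40. The 565 lincRNA and antisense genes between 1 and 5 FPKM had a median log2 fold change of 0.46, with 41.4% upregulated and 9.2% downregulated.

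**Figure D2:**
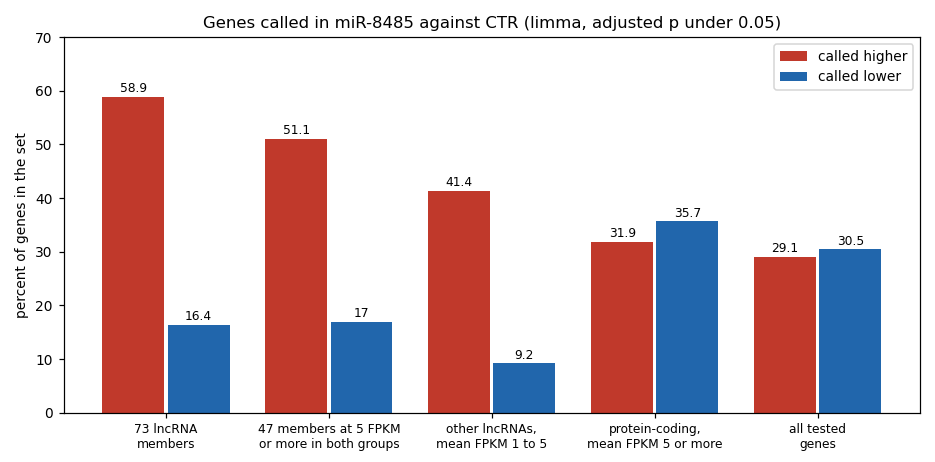
Percent of genes called higher or lower in miR-8485 (limma, adjusted p under 0.05). From left to right stand the 73 well expressed lncRNAs, the 47 of them at 5 FPKM or more in both groups and the lncRNAs of 1 to 5 FPKM. The protein-coding genes of at least 5 FPKM and all tested genes follow. The bars of the 73 lncRNAs stand at 58.9% higher and 16.4% lower, those of the 47 at 51.1% and 17%, and those of all tested genes at 29.1% and 30.5%.

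Among the lncRNAs of nuclear bodies, neither of the most studied members differed. NEAT1 is the scaffold of paraspeckles, nuclear bodies that form around it, and lies at chr11:65422774-65445540 on the plus strand. Its level was 16.3, 14.5 and 14.3 FPKM in CTR and 14.2, 13.5 and 14.4 FPKM in miR-8485. The groups overlapped, with a difference of -0.10 on the log2 scale (standard error 0.06, adjusted p = 0.206). MALAT1, an RNA of nuclear speckles where splicing factors gather, lies next to NEAT1 at chr11:65497688-65506516 on the plus strand. It had 15.4, 14.2 and 11.5 FPKM in CTR and 13.5, 11.98 and 12.5 FPKM in miR-8485. Here the spread within CTR was wider than the gap between the groups, with a log2 difference of -0.11 (standard error 0.11, adjusted p = 0.418). Without CTR replicate 3, the lowest CTR library, the log2 fold change of MALAT1 was -0.23 with an adjusted p of 0.0361 in limma. The direction of NEAT1 depended on the scaling: it was -0.22 after rescaling to TPM (adjusted p = 0.0454) and 0.09 (adjusted p = 0.373) once the trend of each library against gene length was taken out. Of the 12 genes listed here as lncRNAs of nuclear bodies and chromatin, 5 were tested. TUG1 (0.21), HOTAIRM1 (0.63) and FIRRE (1.10), which are not among the 73 by level or biotype, were upregulated, and NEAT1 and MALAT1 were the other two.

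NORAD is an abundant cytoplasmic lncRNA that binds PUMILIO proteins, which repress mRNAs, and it was the lncRNA with the second highest mean of the 73. NORAD, at chr20:36045622-36050960 on the minus strand, had 57.1, 59.9 and 61.5 FPKM in CTR and 59.8, 61.9 and 60.7 FPKM in miR-8485. The groups overlapped, with 5494 to 6171 fragments per library and a log2 difference of 0.03 (standard error 0.04, adjusted p = 0.557), which became -0.08 after rescaling to TPM (adjusted p = 0.184). PUM2, a protein partner of NORAD, fell by 0.20 on the log2 scale (16.7 ± 0.399 to 14.5 ± 0.213 FPKM, SD, n = 3, limma adjusted p = 0.00528). Of the 11 names listed as RNA-binding or decoy lncRNAs, 5 were tested. DANCR, annotated as a processed transcript and so outside the 73, rose most, from 20.7 ± 0.809 to 58.1 ± 1.12 FPKM (SD, n = 3), OIP5-AS1 rose by 0.30 on the log2 scale, BCYRN1 fell by 0.98 and TINCR had -0.13 (adjusted p = 0.135).

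Several lncRNAs of the 73 are known from colorectal and other carcinomas. UCA1, first described in bladder cancer and expressed in many carcinomas, lies at chr19:15828206-15836326 on the plus strand. It had 34.3, 38.8 and 41.4 FPKM in CTR and 23.8, 25.0 and 27.6 FPKM in miR-8485, so that the highest miR-8485 library was below the lowest CTR library. It fell by 0.58 on the log2 scale (standard error 0.08, adjusted p = 7.2e-04 from limma). FGD5-AS1, studied in several carcinomas, had 11.6, 10.96 and 11.8 FPKM in CTR and 9.33, 8.78 and 9.69 FPKM in miR-8485. Its groups did not overlap, and it fell by 0.30 (standard error 0.06, adjusted p = 0.00286).

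ELFN1-AS1, a lncRNA reported to be raised in colorectal tumours, rose most in this group. It lies at chr7:1738630-1742291 on the minus strand. Its level was 11.1, 11.2 and 11.3 FPKM in CTR and 28.8, 27.8 and 28.1 FPKM in miR-8485, from 197 to 530 fragments per library. The replicates were close together and the groups far apart, with a log2 difference of 1.33 (standard error 0.04, adjusted p = 1.9e-06, limma), or 2.51-fold. VPS9D1-AS1, transcribed across from VPS9D1, had 13.5, 15.5 and 14.0 FPKM in CTR and 20.9, 20.8 and 18.4 FPKM in miR-8485, again without overlap. It rose by 0.48 (standard error 0.07, adjusted p = 0.00106), while VPS9D1, which overlaps it on the other strand, rose by 0.27 (adjusted p = 0.0386). PVT1, the lncRNA neighbour of MYC, had 8.60, 8.33 and 8.16 FPKM in CTR and 12.5, 12.6 and 12.5 FPKM in miR-8485. The 3 miR-8485 libraries nearly coincided above the CTR libraries, with a log2 difference of 0.58 (standard error 0.05, adjusted p = 4.3e-05). Of the 26 names in the list of colorectal cancer lncRNAs, 24 were in the table, 12 were tested, 4 rose and 3 fell, shares near those of all tested genes (29.1% and 30.5%). Outside the 73, PCAT6 rose by 1.11 and LINC00511 fell by 0.39, while CCAT2 was at 0 in every library.

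Among the lncRNAs linked to MYC or p53, MINCR, which is named as a MYC-induced lncRNA and was singled out after its values were seen, rose from 4.11 ± 0.579 to 7.49 ± 1.02 FPKM (SD, n = 3), 0.85 on the log2 scale (adjusted p = 0.001). MAFG-DT, also called MILIP and described as a MYC-inducible RNA that acts on p53, had 5.82, 7.12 and 5.42 FPKM in CTR and 7.20, 4.49 and 6.23 FPKM in miR-8485. The groups of MAFG-DT overlapped fully (log2 fold change -0.05, adjusted p = 0.818). Of 8 names listed as p53-related lncRNAs, 2 were tested. PURPL, a p53-induced lncRNA below the level threshold, rose from 2.31 ± 0.669 to 5.12 ± 0.405 FPKM (log2 fold change 1.15, adjusted p = 0.00177), and the other was NEAT1.

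The most abundant lncRNA of the CTR libraries fell. AC105460.1 (ENSG00000250920), a lincRNA with no assigned function at chr4:103550927-103559127 on the minus strand, had 96.5, 102 and 104 FPKM in CTR and 43.3, 38.7 and 37.8 FPKM in miR-8485. Every miR-8485 library held less than every CTR library, with 1444 to 1556 fragments in CTR and 581 to 646 in miR-8485. The fall was 1.33 on the log2 scale (standard error 0.06, adjusted p = 5.1e-06), or 2.52-fold, so that NORAD took the first place among the 73 in miR-8485. Its opposite-strand partner, AC105460.2, was also downregulated (log2 fold change -0.65, adjusted p = 0.0106). Of the 5 among the 73 with a mean of at least 20 FPKM, 3 fell (AC105460.1, UCA1 and AC099850.3), and NORAD and AL513165.1 were not called.

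The other lncRNAs of high level were AL513165.1, AC005288.1, AC006329.1 and AL445524.1. AL513165.1 had 24.0, 27.2 and 23.7 FPKM in CTR and 27.7, 25.3 and 24.5 FPKM in miR-8485, and AC005288.1 had 15.9, 20.4 and 18.2 FPKM in CTR and 18.9, 21.7 and 20.7 FPKM in miR-8485. Both overlapped between the groups, with log2 fold changes of 0.05 (adjusted p = 0.563) and 0.18 (adjusted p = 0.155). AC005288.1 was called higher once CTR replicate 2, its highest CTR library, was left out (0.26, adjusted p = 0.0387 in limma) or once the replicate number was a block in the fit (0.18, adjusted p = 0.0289). AC006329.1, now EMSLR and named for stabilising the mRNA of E2F1, rose from 15.5 ± 2.20 to 20.5 ± 1.26 FPKM (SD, n = 3), 0.41 on the log2 scale (adjusted p = 0.00927) that was 0.17 (adjusted p = 0.256) once the trend against gene length was taken out. AL445524.1 rose from 13.1 ± 0.231 to 20.8 ± 1.32 FPKM (log2 fold change 0.65, adjusted p = 6.3e-05).

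The largest rises among the 73 were of lncRNAs with little known of them. AL035661.1 (now LINC02967), a lincRNA of 1 exon at chr20:24931840-24932983 on the plus strand, had 6.30, 4.11 and 3.77 FPKM in CTR and 16.0, 15.1 and 16.98 FPKM in miR-8485. The lowest miR-8485 library was far above the highest CTR library, and the log2 difference came to 1.78 (standard error 0.18, adjusted p = 1.2e-04), or 3.42-fold. AC012625.1, at chr5:93019663-93068669 on the minus strand, followed with 2.84, 1.95 and 3.89 FPKM in CTR and 7.66, 9.02 and 7.22 FPKM in miR-8485. These values rest on 22 to 44 fragments in CTR and 86 to 102 in miR-8485, and the standard error was accordingly wide (log2 fold change 1.48, standard error 0.22, adjusted p = 9.4e-04). LINC02331 rose from 4.50 ± 0.491 to 10.3 ± 1.40 FPKM (SD, n = 3), 1.17 on the log2 scale. Altogether 15 lncRNAs were upregulated by at least 1 on the log2 scale (20.5%), beside 3.58% of all tested genes. The shares were 1.35% for the protein-coding genes of at least 5 FPKM and 21.4% for the lncRNAs of 1 to 5 FPKM. Downregulated by as much were 3 of the 73, beside 554 of the 12349 tested genes and 23 of the 565 lncRNAs of 1 to 5 FPKM. Of the 15 that rose, 11 were among the 20 that reached 5 FPKM in miR-8485 alone. Of the 47 with both group means at that level 4 (8.51%) rose by as much.

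The lncRNAs that rose by less included further ones studied in carcinomas. LINC00857, described in lung and other carcinomas, had 3.42, 4.46 and 4.94 FPKM in CTR and 6.72, 7.13 and 5.998 FPKM in miR-8485. LINC01234, likewise studied in several carcinomas, had 3.97, 3.63 and 4.25 FPKM in CTR and 6.78, 6.29 and 6.98 FPKM in miR-8485. Neither overlapped between the groups, and they rose by 0.63 (standard error 0.14, adjusted p = 0.00496) and 0.75 (standard error 0.08, adjusted p = 1.5e-04). Among lncRNAs named for a neighbouring gene, PIK3CD-AS2, across from PIK3CD, a gene of phosphoinositide signalling, rose from 4.58 ± 0.470 to 9.10 ± 0.645 FPKM (SD, n = 3, adjusted p = 7.6e-05), while PIK3CD had a log2 difference of -0.07 (adjusted p = 0.581). MAPKAPK5-AS1 rose from 7.07 ± 0.546 to 12.9 ± 0.759 FPKM and THAP9-AS1 from 9.91 ± 0.898 to 12.5 ± 0.758 FPKM. AP002387.1, across from the cholesterol synthesis gene DHCR7, had 12.6, 9.92 and 9.18 FPKM in CTR and 24.4, 23.9 and 18.8 FPKM in miR-8485. It rose without overlap by 1.08 (standard error 0.14, adjusted p = 4.4e-04), and DHCR7 had 0.22 (adjusted p = 0.0602). The smallest called rise was that of AC115618.2, with 13.2, 13.9 and 15.7 FPKM in CTR and 16.3, 15.9 and 17.5 FPKM in miR-8485 (log2 fold change 0.22, adjusted p = 0.0378), where the highest CTR library lay just under the lowest miR-8485 library.

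The 18 lncRNAs that were not called had log2 fold changes from -0.53 (AL023284.4) to 0.37 (AC027307.2). Their standard errors ran from 0.04 (NORAD) to 0.23 (AC105118.1). AL023284.4, a gene of 1 exon, had 6.38, 6.80 and 4.88 FPKM in CTR and 5.81, 3.70 and 3.23 FPKM in miR-8485, with overlap (standard error 0.22, adjusted p = 0.0721). AL354836.1 had 7.82, 7.39 and 5.52 FPKM in CTR and 9.24, 8.85 and 8.02 FPKM in miR-8485. It was the lncRNA not called whose groups did not overlap (log2 fold change 0.34, standard error 0.13, adjusted p = 0.0524), and ADRM1, a gene of a proteasome ubiquitin receptor across from it, fell by 0.37 (adjusted p = 0.00151).

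**Figure D3:**
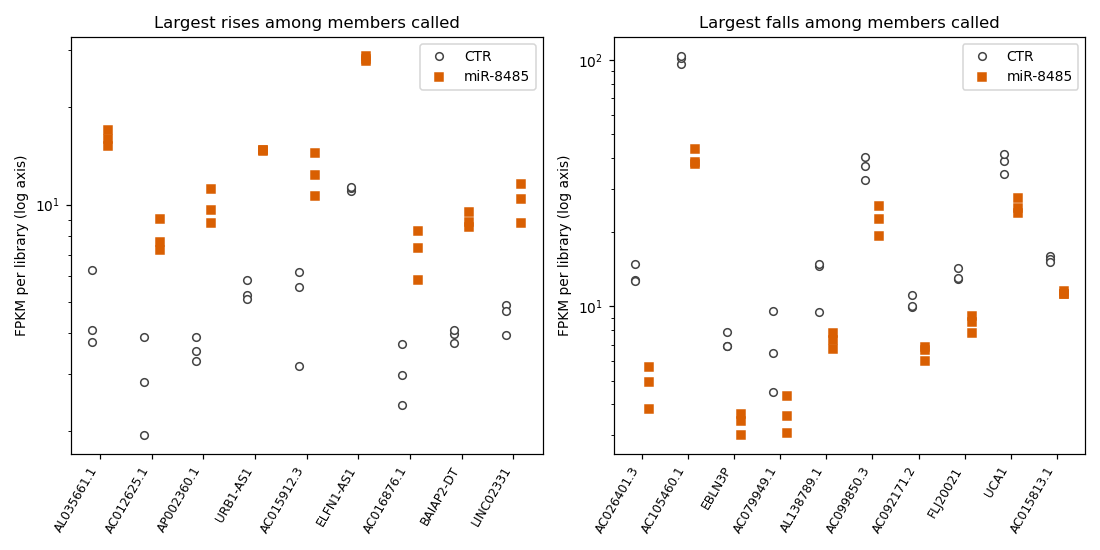
FPKM in each library (log axis) of the lncRNAs with the largest rises and the largest falls, with 3 points per group for CTR and miR-8485. In every lncRNA shown the miR-8485 points lie entirely above or entirely below the CTR points, with the smallest gap in AC079949.1, where CTR replicate 1 had 4.50 FPKM and miR-8485 replicate 1 had 4.34.

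The largest fall was that of AC026401.3, a lincRNA of 1 exon at chr16:15701237-15702118 on the plus strand. It had 12.8, 12.7 and 14.8 FPKM in CTR and 3.85, 4.95 and 5.66 FPKM in miR-8485. All CTR libraries lay well above the miR-8485 libraries, and the fall was 1.47 on the log2 scale (standard error 0.14, adjusted p = 8.5e-05), or 2.78-fold. The gene lies within the span of NDE1, a protein-coding gene on the same strand that acts at the centrosome and was singled out after its values were seen. NDE1 fell by 1.76 (7.72 ± 0.872 to 2.23 ± 0.454 FPKM, SD, n = 3, adjusted p = 5.9e-05), and fragments of the transcripts cannot be told apart where they share sequence. In all, 5 of the 73 lay within or across a tested gene on their own strand.

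EBLN3P derives from an ancient insertion of a bornavirus-like gene and lies at chr9:37079857-37090507 on the plus strand. Its level was 6.89, 6.88 and 7.89 FPKM in CTR and 3.01, 3.67 and 3.42 FPKM in miR-8485. The groups were apart by more than their spread, with a fall of 1.08 on the log2 scale (standard error 0.09, adjusted p = 5.7e-05). AC079949.1 had 4.50, 9.60 and 6.46 FPKM in CTR and 4.34, 3.59 and 3.07 FPKM in miR-8485, from 36 to 107 fragments. Its lowest CTR library was barely above its highest miR-8485 library, and its fall of 0.83 (standard error 0.26, adjusted p = 0.0246) lost its call without CTR replicate 3 (adjusted p = 0.0582), without miR-8485 replicate 2 (0.0606) and without miR-8485 replicate 3 (0.0763) in limma.

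Several of the lncRNAs that fell lie across from a gene of the opposite strand that fell as well. AC099850.3, now PRR11-AS1, had 32.5, 40.5 and 37.0 FPKM in CTR and 22.6, 19.3 and 25.5 FPKM in miR-8485 (log2 fold change -0.71, adjusted p = 0.00136), and PRR11, a gene of the cell cycle, had a log2 difference of -0.56 (adjusted p = 1.9e-04). AL138789.1 fell by 0.80 (adjusted p = 0.00437) and DEPDC1, a mitotic gene across from it, by 0.28 (adjusted p = 0.0107). AC092171.2 fell by 0.67 (adjusted p = 1.8e-04) and FBXL18, which encodes an F-box protein, by 0.56 (adjusted p = 0.00999). The counting is not stated to use strand, so fragments of a lncRNA and of its opposite-strand partner cannot be told apart in such places. Over the 73, 24 were overlapped by a tested gene on the opposite strand (12 rose and 6 fell, median log2 fold change 0.30) and 49 were not (31 rose and 6 fell, median 0.58). AC015813.1 (15.5 ± 0.439 to 11.3 ± 0.180 FPKM, log2 fold change -0.45) and LINC01963 (5.98 ± 0.827 to 4.66 ± 0.463 FPKM, -0.35) were the remaining downregulated lncRNAs besides FLJ20021, which is described with its neighbour.

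Many of the 73 lncRNAs were short and had few exons. The median canonical transcript had 1197 bases and 2 exons, where the tested protein-coding genes had 3268 bases and 9 exons. Of the 22 lncRNAs with 1 exon 11 rose and 2 fell, of the 29 with 2 exons 16 rose and 6 fell, and of the 20 with 3 or more exons 15 rose and 4 fell. By biotype, 28 of the 45 lincRNA genes rose and 9 fell, and 15 of the 28 antisense genes rose and 3 fell. Among all tested genes 29.1% rose and 30.5% fell. These classes include the 20 lncRNAs that reached 5 FPKM in miR-8485 alone and the 6 that did so in CTR alone. The genes were also set side by side by gene length. Under 1000 bases of gene length, 20 of 36 lncRNAs (55.6%) and 42 of 77 protein-coding genes of at least 5 FPKM (54.5%) rose. From 1000 to 2000 bases the shares were 73.3% of 15 lncRNAs and 44.4% of 615 protein-coding genes, and from 2000 to 4000 bases 70% of 10 and 35.8% of 2138. At 4000 bases or more, 5 of 12 lncRNAs rose (41.7%) and 4 fell, beside 27% of the protein-coding genes rising. Taking out the trend of each library against gene length, an alternative chosen after seeing the data, left 38 lncRNAs upregulated and 14 downregulated with a median of 0.32. The part of gene length in the rises was not tested further.

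Some lncRNAs start next to the start of a protein-coding gene on the other strand. Their transcription is divergent where the spans do not overlap, and where the spans overlap the genes run across each other. Of the 73, 18 (24.7%) started within 1 kb of such a protein-coding start, where 27.8% of the lncRNAs of 1 to 5 FPKM did so. Among these 18, 13 rose and 2 fell (72.2% and 11.1%), with a median log2 fold change of 0.85, and of the 157 lncRNAs of 1 to 5 FPKM with such a start 60.5% rose and 3.18% fell, with a median of 0.75. In 8 of the 18 the level reached 5 FPKM in miR-8485 alone, and of the 10 at 5 FPKM in both groups 5 rose and 2 fell. Their protein-coding partners had a median of -0.07, with 3 upregulated and 4 downregulated. The difference between partners was then tested with limma on the log2 ratio of lncRNA to protein-coding gene over 177 such pairs of tested genes, a fit added after the data had been seen. The lncRNA rose relative to its partner in 12 of the 18 pairs and fell in 1, with a median difference of 0.78. Over all 177 pairs it rose in 51.4% and fell in 2.82%, with a median difference of 0.84, so that the median of the 18 was no higher than that of all pairs. In 12 of the 18 pairs the spans do not overlap, and there the lncRNA rose relative to its partner in 9 and the other 3 were not called.

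The start regions of 3 upregulated lncRNAs are shown because the rises of the first 2 are compared with their divergent partners below and the third, ELFN1-AS1, had the smallest standard error of the 73. They are RefSeq entries of build GRCh38.p14, from 250 bases before to 50 bases after the annotated start, written 5′ to 3′ on the strand of the lncRNA. Capitals mark matches, on either strand, to short motifs bound by general and widespread transcription factors. The TATA box core was spelled TATAAA, the box bound by the factor NF-Y was spelled CCAAT, the GC box was spelled GGGCGG, and the core bound by ETS factors was spelled CCGGAAG. The region of AP002360.1, now EMSY-DT, is chr11:76444631-76444930 on the minus strand, that of URB1-AS1 is chr21:32392883-32393182 on the plus strand, and that of ELFN1-AS1 is chr7:1742261-1742560 on the minus strand.
AP002360.1: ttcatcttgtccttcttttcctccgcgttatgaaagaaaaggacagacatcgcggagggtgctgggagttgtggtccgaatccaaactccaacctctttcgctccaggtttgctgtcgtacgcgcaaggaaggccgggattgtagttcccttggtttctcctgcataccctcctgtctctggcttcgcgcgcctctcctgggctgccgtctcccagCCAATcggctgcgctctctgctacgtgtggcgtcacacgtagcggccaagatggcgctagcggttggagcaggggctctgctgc
URB1-AS1: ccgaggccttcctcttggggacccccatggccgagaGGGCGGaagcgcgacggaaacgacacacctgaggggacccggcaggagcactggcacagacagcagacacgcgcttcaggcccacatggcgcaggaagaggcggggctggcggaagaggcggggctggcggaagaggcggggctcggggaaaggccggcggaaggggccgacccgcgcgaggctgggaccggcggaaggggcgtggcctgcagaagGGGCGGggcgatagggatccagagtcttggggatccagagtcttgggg
ELFN1-AS1: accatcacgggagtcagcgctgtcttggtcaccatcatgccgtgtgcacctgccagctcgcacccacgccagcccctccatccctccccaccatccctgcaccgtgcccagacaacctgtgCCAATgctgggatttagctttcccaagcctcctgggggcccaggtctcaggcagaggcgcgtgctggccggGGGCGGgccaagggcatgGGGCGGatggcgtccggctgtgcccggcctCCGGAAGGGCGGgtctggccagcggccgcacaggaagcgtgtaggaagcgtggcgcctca
None of the 3 windows held TATAAA. AP002360.1 held 1 CCAAT, URB1-AS1 held 2 GGGCGG, and ELFN1-AS1 held 1 CCAAT, 3 GGGCGG and 1 CCGGAAG, the last overlapping a GGGCGG. Of the 73 lncRNAs, 23 had an entry and 21 had it within 1 kb of the listed start. Among those 21, TATAAA was in 1 (4.76%), CCAAT in 11 (52.4%), GGGCGG in 15 (71.4%) and CCGGAAG in 3 (14.3%). Of all 35116 entries, 11.5% held TATAAA, 34.6% CCAAT, 44.95% GGGCGG and 10.3% CCGGAAG. The median number of CG dinucleotides in the window was 24 in the 21 and 14 in all entries. A match of letters is not a site shown to be used.

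AP002360.1 starts 267 bases from EMSY, which encodes a partner of BRCA2, and had 3.90, 3.52 and 3.30 FPKM in CTR and 9.60, 11.2 and 8.77 FPKM in miR-8485. The lncRNA rose without overlap (log2 fold change 1.43, standard error 0.10), while EMSY had 1.80 ± 0.189 FPKM in CTR and 1.79 ± 0.146 in miR-8485 (SD, n = 3). The difference of the pair was 1.44 (standard error 0.18, adjusted p = 0.0014). URB1-AS1 starts 104 bases from URB1, a gene of ribosome biogenesis, and had 5.27, 5.12 and 5.85 FPKM in CTR and 14.7, 14.8 and 14.7 FPKM in miR-8485. Its 3 miR-8485 libraries were nearly equal and far above CTR (log2 fold change 1.43, standard error 0.06), URB1 had a log2 difference of 0.19 (adjusted p = 0.137), and the difference was 1.24 (standard error 0.14, adjusted p = 0.00101).

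In other pairs the partner fell. AC015912.3 starts 106 bases from TRIM25, a ubiquitin ligase of antiviral signalling, and had 6.22, 3.18 and 5.56 FPKM in CTR and 14.4, 10.6 and 12.4 FPKM in miR-8485, from 20 to 90 fragments. It rose by 1.35 without overlap while TRIM25 fell by 0.26 (adjusted p = 0.0211), a difference of 1.61 (standard error 0.32, adjusted p = 0.00559). BAIAP2-DT, 241 bases from BAIAP2, a gene of the actin cytoskeleton, had 3.997, 4.09 and 3.73 FPKM in CTR and 9.50, 8.85 and 8.54 FPKM in miR-8485. The lncRNA rose by 1.17 and BAIAP2 fell by 0.27 (adjusted p = 0.00215), a difference of 1.44 (adjusted p = 7.1e-04). For MAFG-DT, 115 bases from the transcription factor gene MAFG, the difference of 0.83 (adjusted p = 0.00969) came with a fall of MAFG from 16.5 ± 0.939 to 8.98 ± 1.02 FPKM and no called change of the lncRNA. AL441992.1, now ZDHHC12-DT, had likewise a difference of 0.74 (adjusted p = 0.022) with a fall of ZDHHC12, which encodes a palmitoyl transferase, by 0.51.

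The partner was not called in most of the other pairs. AC016876.1, which overlaps MPDU1, a gene of protein glycosylation, had 3.72, 2.40 and 2.98 FPKM in CTR and 8.32, 7.37 and 5.86 FPKM in miR-8485. The difference was 1.25 (standard error 0.23, adjusted p = 0.00382) with MPDU1 at -0.03. MHENCR with GMEB2 (1.22, adjusted p = 0.00262), MAPKAPK5-AS1 with MAPKAPK5 (1.01, adjusted p = 0.00101), AL445524.1 with TSNAX (0.73, adjusted p = 0.0028) and AC005288.1 with FBXL20 (0.36, adjusted p = 0.0229) were further pairs in which the lncRNA rose relative to its partner.

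In 3 pairs both genes rose and the difference was not called. ASB16-AS1 rose by 0.84 and TMUB2 by 0.61 (difference 0.22, standard error 0.19, adjusted p = 0.326), AL355338.1 (now PCCA-DT) rose by 0.82 and PCCA by 0.60 (difference 0.22, adjusted p = 0.456), and AC040977.1 rose by 1.11 and ALOX12 by 0.89 (difference 0.22, adjusted p = 0.311). FLJ20021 was the lncRNA that fell relative to its partner. It had 14.3, 12.9 and 13.1 FPKM in CTR and 9.16, 8.61 and 7.78 FPKM in miR-8485. The lncRNA fell without overlap by 0.65 (standard error 0.07, adjusted p = 2.3e-04), while PPP3CA, which encodes the catalytic subunit of calcineurin and overlaps it, had a log2 difference of 0.11 (adjusted p = 0.102), and the difference was -0.76 (adjusted p = 0.00739). FGD5-AS1 with NR2C2 (-0.24, adjusted p = 0.101) and THAP9-AS1 with THAP9 (-0.13, adjusted p = 0.412) were not called.

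**Figure D4:**
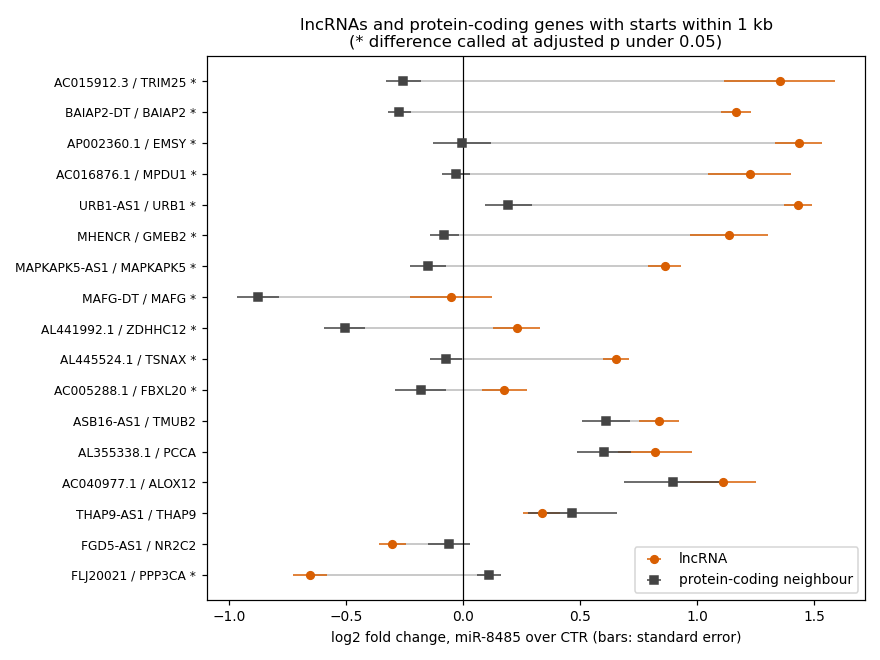
Log2 fold change (miR-8485 over CTR, bars for the standard error) of 17 lncRNAs that start within 1 kb of a protein-coding gene on the other strand, each beside that gene, with an asterisk where the difference was called in limma. The lncRNA point lies to the right of its partner in 14 of the 17 lines and 11 of these carry an asterisk, while FLJ20021 carries one with the lncRNA to the left.

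The seed letters of the mimic were then looked for in the lncRNAs. A canonical transcript was found in GENCODE release 44 for 71 of the 73, and 26.8% of these held at least 1 TGTGTGT, beside 36.7% of the tested protein-coding genes, 33.3% of all tested genes and 12% of the lncRNAs of 1 to 5 FPKM. In all tested genes with a match the median log2 fold change was -0.11 (22.2% upregulated, 40.2% downregulated), and in those without 0.05. In the lncRNAs the medians were 0.41 for the 19 with a match (12 upregulated, 3 downregulated) and 0.40 for the 52 without (30 upregulated, 9 downregulated). Of the 13 lncRNAs with 1 or 2 matches 11 rose (84.6%), beside 24.9% of all tested genes and 43.1% of the lncRNAs of 1 to 5 FPKM with as many matches. Among these 11, AL035661.1, LINC02001, AC100810.1, BAIAP2-DT, MHENCR and AC093297.2 reached 5 FPKM in miR-8485 alone, so their direction follows from the selection. The 84.6% is therefore not a like comparison with the other shares. These counts are descriptions, since genes are not replicates, longer transcripts hold more matches and the difference between the classes was not tested.

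The 6 lncRNAs with 3 or more matches held the most matches by number, without regard to transcript length. A window of 30 bases of each is shown, in GRCh38 letters on the strand of the lncRNA, with the matches in capitals. The windows are NEAT1 at chr11:65444278-65444307 (plus strand), MALAT1 at chr11:65506748-65506777 (plus), NORAD at chr20:36048598-36048627 (minus), LINC01963 at chr2:216219455-216219484 (plus), AL365181.3 at chr1:156643609-156643638 (minus) and EBLN3P at chr9:37089803-37089832 (plus).
NEAT1: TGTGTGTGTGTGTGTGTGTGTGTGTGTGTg
EBLN3P: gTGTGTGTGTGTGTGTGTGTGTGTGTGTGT
AL365181.3: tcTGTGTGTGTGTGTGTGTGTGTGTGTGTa
LINC01963: ctttctataagTGTGTGTGTgcggatatgt
MALAT1: atggggcggggTGTGTGTGTcattggaaag
NORAD: aaccattgttaTGTGTGTgcaattttattt
The windows of NEAT1 and EBLN3P are stretches of a longer TG repeat, whose longest run was 59 bases in NEAT1 and 36 in EBLN3P. The window of AL365181.3 holds its whole longest run of 27 bases. The MALAT1 window lies past the end of the gene span in the deposited table, within the longer transcript of the newer annotation.

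These 6 lncRNAs did not change in the same direction. EBLN3P, with 16 matches (3.22 per kb), fell by 1.08 on the log2 scale. AL365181.3, with 11 matches (3.41 per kb), had 11.4, 12.1 and 11.8 FPKM in CTR and 20.6, 21.3 and 22.0 FPKM in miR-8485. All of its miR-8485 libraries were above CTR, and it rose by 0.85 (standard error 0.05, adjusted p = 1.1e-05). NEAT1, with 58 matches (2.55 per kb), was not called. LINC01963 with 4 matches was downregulated (log2 fold change -0.35, adjusted p = 0.0301), while MALAT1 and NORAD with 3 each were not called. The median log2 fold change of the 6 was -0.10, beside -0.24 in the 1172 tested genes with 3 or more matches, of which 51.7% fell and 15.7% rose.

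**Figure D5:**
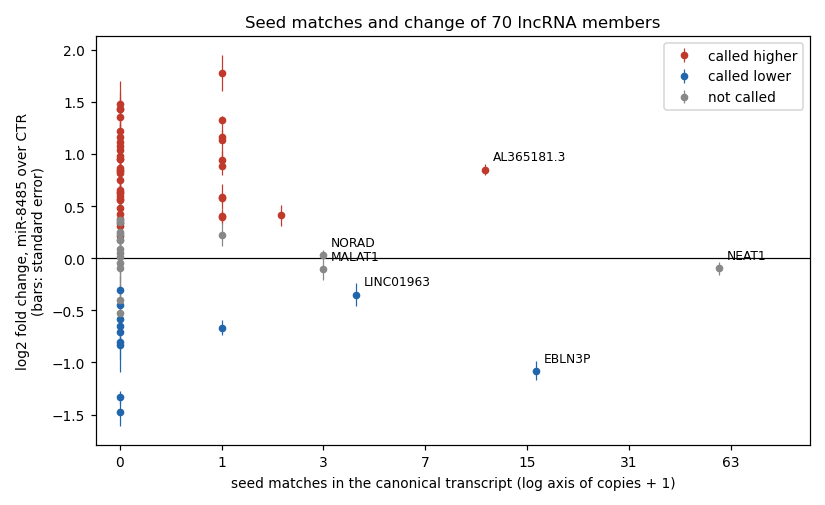
Log2 fold change (miR-8485 over CTR, bars for the standard error) of 70 lncRNAs with a canonical transcript against the number of seed matches TGTGTGT (log axis of matches + 1), coloured by call. The lncRNAs with no match run from -1.47 to 1.48, and at the right EBLN3P (-1.08, 16 matches), AL365181.3 (0.85, 11 matches) and NEAT1 (-0.10, 58 matches) lie apart from each other.

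The protein genes that act with nuclear lncRNAs were looked at beside the shares of all tested genes, of which 29.1% rose and 30.5% fell. Of 13 genes of paraspeckle proteins, all tested, NONO rose by 0.36 (106 ± 3.57 to 136 ± 4.61 FPKM, SD, n = 3) and 6 fell, with a median log2 fold change of -0.15. Those that fell were EWSR1 (-0.68), HNRNPH3 (-0.38), SFPQ (-0.37), CPSF6 (-0.20), PSPC1 (-0.17) and NUDT21 (-0.14). NONO, SFPQ and PSPC1 encode the related proteins that coat NEAT1, so that members of this family moved in both directions. The nuclear exosome and its adaptors break down many unstable nuclear RNAs. Of its 20 tested genes 3 rose and 5 fell, with a median of -0.06, both counts below the shares of all tested genes. EXOSC5, a subunit of the exosome core, rose from 24.2 ± 1.01 to 48.8 ± 1.83 FPKM (log2 fold change 1.01, adjusted p = 6.6e-06), and EXOSC1 (0.28) and PABPN1 (0.27) rose as well. EXOSC9 (-0.56), TENT4B (-0.48), C1D (-0.45), EXOSC8 (-0.26) and MPHOSPH6 (-0.25) fell. MTREX, the helicase of the adaptors, had -0.10 (adjusted p = 0.23). Rescaling to TPM left 2 of the 20 upregulated and 9 downregulated, with the paraspeckle genes at 1 and 9.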

How the data were processed

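RNA from 3 CTR and 3 miR-8485 libraries was sequenced by the authors after preparation with a VAHTS kit. Per the labels and the methods, the authors trimmed the reads, mapped them to hg38 with HISAT2 2.0.5 and counted fragments per gene with featureCounts 1.5.0-p3. The strand setting of the counting was not given in the sources used here. The deposited values used here were FPKM, which the authors made from the counts by scaling to the length of the gene and the fragments of the library, so that a rise or fall of all RNA in a cell does not show. The table also holds gene names, biotypes and coordinates, and 0 columns of measurements had no sample.

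From the FPKM values, limma 3.58.1 (R 4.3.3, variance trend, no covariates) was fitted to log2(FPKM + 0.1) of the 12349 genes with a mean of at least 1 FPKM (two-sided, Benjamini-Hochberg, called at an adjusted p under 0.05). The authors' own test was made on counts, and limma was used because the unit is FPKM. The pseudocount shrinks the fold changes of genes at low level. Fragments were recovered by multiplying each value by gene length and library total, with a tolerance of 0.02 for a whole number, and intervals of counting error are not given because the spread between replicates is. The script was tested on simulated data. Tables and figures were made with Python 3.11.15, pandas 2.3.3, numpy 2.4.6 and matplotlib 3.10.9.

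Genes named are the 10 lncRNAs of highest mean, the lncRNAs in the gene lists and their neighbours on the opposite strand. The 10 largest rises and the 10 largest falls among called genes without overlap between groups are named with their neighbours too. From the protein lists (paraspeckle proteins, nuclear RNA decay and PUMILIO) the called genes and MTREX are named. Other lncRNAs, some with their neighbours, were named after their values were seen. The pairs or the seed matches single out some of these, and the rest were picked by no fixed rule as further examples, most of them of rises. The members and lists were chosen with earlier results of these data known. Pairs are a lncRNA and a protein-coding gene on the opposite strand with starts within 1 kb.

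Transcripts for seed matches were the canonical ones of GENCODE release 44, and promoter windows came from RefSeq. Alternatives were pseudocounts of 1 and 0.01, no filter, a filter at 5 FPKM, 3 other scalings, no variance trend, the replicate number as a block, voom on recovered fragments, each library left out, subsets of the 73, and, added after seeing the data, removal of the trend against gene length (lowess, span 0.3). Same-numbered libraries of the groups did not deviate together, so no pairing was used. The other experiments of the study were not analysed here. For some genes of the lists and pairs, values are not reported here and the figures leave them out.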

Additional observations from a re-analysis of the deposited data

How the results depend on the processing

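Over the 17 alternative fits on all genes, 38 to 46 of the 73 lncRNAs were upregulated, 10 to 14 were downregulated, and the median log2 fold change stayed above 0. The median was 0.30 after rescaling to TPM, 0.44 after quantile normalization and 0.32 with the trend against gene length removed, and it ran from 0.38 (without CTR replicate 2) to 0.52 (without CTR replicate 3) when a library was left out, beside 0.41 as reported. The 47 lncRNAs of at least 5 FPKM in both groups had 24 upregulated and a median of 0.31, and the 49 not overlapped on the opposite strand had 6 downregulated and a median of 0.58. The counts come from fewer genes, and the cause of the moved medians was not tested. With the length trend removed, 3 paraspeckle genes were upregulated against 1, and 5 nuclear decay genes against 3. Rescaling to TPM gave 9 downregulated nuclear decay genes against 5. The pairs in which the lncRNA fell numbered 1 to 2 with a library left out, 2 without CTR replicate 2. With the replicate number as a block, 46 lncRNAs were upregulated and 13 downregulated, against 43 and 12. Among the named lncRNAs the block changed the call of AC005288.1 (adjusted p = 0.0289). The labels do not say that a number is shared by the groups, and the deviations of same-numbered libraries correlated by 0.067, 0.034 and -0.064, so the block is not a paired analysis. Of 510 values of 30 named lncRNAs, 6 changed direction, all of lncRNAs not called. AL513165.1 went to -0.064 with TPM and -0.194 with the length trend removed, and ran from -0.001 (without miR-8485 replicate 1) to 0.113 (without CTR replicate 2) with a library left out. AC005288.1 went to -0.065 and NEAT1 to 0.088 with the length trend removed, and NORAD to -0.084 with TPM. The cause of these changes was not tested. AC079949.1 lost its call without the filter (adjusted p = 0.0842). Depth limits the 8 lncRNAs with fewer than 100 fragments in every library.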
